A study of Mus musculus with 6 samples.

Results

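RGS proteins and the subunits of heterotrimeric G proteins were followed through 3 populations of sorted mouse islet cells. The members were taken by gene symbol alone and comprised 53 of the 46932 genes used, namely 21 genes of the Rgs family, 15 Gα genes, 5 Gβ genes and 12 Gγ genes. Of these, 33 reached 1 RPKM (reads scaled to gene length in kilobases and to library size) in at least 2 of the 6 libraries and were tested, and 20 did not. The tested members were 12 Rgs genes, 11 Gα genes, 4 Gβ genes and 6 Gγ genes.

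Heterotrimeric G proteins carry signals from receptors at the cell surface. An activated receptor makes the Gα subunit exchange GDP for GTP and part from the Gβγ dimer, and RGS proteins end the signal by speeding the hydrolysis of that GTP. In islets, Gαs raises cyclic AMP downstream of the incretin receptors, Gαi, Gαo and Gαz carry inhibitory signals such as those of adrenaline and somatostatin, and Gαq carries muscarinic signals. RGS proteins of the R7 group, which holds Rgs6, Rgs7, Rgs9 and Rgs11, are stable only when bound to Gβ5, the product of Gnb5.

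The transdifferentiated libraries came from cells positive for both reporters, a mCherry-tagged histone H2b driven by the mouse Ins1 promoter (mIns1-H2b-mCherry) and a YFP label left by Sst-cre on a floxed YFP allele. They therefore carried a label from the insulin promoter together with a label for present or past somatostatin promoter activity. The beta libraries came from mCherry-positive cells and the delta libraries from YFP-positive cells of islets with the same 3 transgenes. At a single point the series text calls the starting cell type alpha. Its title and sample labels say delta, as does the somatostatin promoter that drives the Cre, and delta was followed. Each population had 2 libraries, replicate 1 from a pool of adult males and replicate 2 from a pool of adult females, each of 10 to 12 animals. Islets were kept overnight in medium with 5.5 mM glucose before dissociation and sorting, with no treatment that differed between groups. No sample came from a single animal, so every p-value measures the spread between pooled libraries, and sex and pool cannot be told apart. Values are given below for the male pool first and the female pool second.

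Library depth, recovered from the step size of low RPKM values, was 12.5 M and 10.9 M reads in the transdifferentiated libraries, 21.6 M and 20.5 M in the beta libraries and 17.0 M and 15.7 M in the delta libraries. The sorted populations carried their defining markers. Summed RPKM over 7 beta cell markers was 86442 and 94413 in transdifferentiated, 310207 and 221900 in beta and 1441 and 1767 in delta libraries, and over 5 delta cell markers it was 13507 and 13590, 79.7 and 96.6, and 51785 and 60684 in that order of groups. Markers of alpha cells summed to 1795 and 2588 RPKM in transdifferentiated, 457 and 638 in beta and 15138 and 16507 in delta libraries, and both markers of PP cells, Ppy and Pyy, summed to 11877 and 12041 RPKM in transdifferentiated, 802 and 558 in beta and 36498 and 37076 in delta libraries. The delta libraries thus also held RNA of genes that mark these other endocrine cells. Markers of exocrine acinar cells summed to 2074 and 138 RPKM in transdifferentiated, 7571 and 286 RPKM in beta and 685 and 507 RPKM in delta libraries, higher in the male pool of each. In the beta libraries the insulin gene Ins2 alone took 41.3% and 34.8% of the summed RPKM, against 0.305% and 0.360% in delta libraries, with 17.9% and 18.6% in transdifferentiated libraries. RPKM is relative to the whole library. The median log2 fold change over all 13022 genes tested was 0.32 for transdifferentiated against beta and -0.36 for beta against delta, and only -0.03 for transdifferentiated against delta. The part of the insulin transcripts in these medians was not tested. Fold changes against beta libraries are therefore also read against these medians. In bulk samples, fewer cells of a type and less RNA per cell cannot be told apart.

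Gnas and Gng2 had the largest fold changes between beta and delta libraries among the members. Rgs9, Rgs2 and Gng12 also differed there and were taken as examples. Their proximal promoters, 250 bases upstream of the start site in RefSeq (GRCm38.p6), are shown because Rgs9 and Rgs2 were lower in beta than in delta libraries and Gng12 was higher. They lie at chr11:109298182-109298431 on the minus strand, chr1:144004150-144004399 on the minus strand and chr6:66896147-66896396 on the plus strand. RefSeq lists 2 start sites for Gng12, of which the first was used. Capitals mark matches on either strand to the half-site TGACG of the cyclic AMP response element, the TATA box TATAAA, the GC box CCGCCC and the CCAAT box.
Rgs9: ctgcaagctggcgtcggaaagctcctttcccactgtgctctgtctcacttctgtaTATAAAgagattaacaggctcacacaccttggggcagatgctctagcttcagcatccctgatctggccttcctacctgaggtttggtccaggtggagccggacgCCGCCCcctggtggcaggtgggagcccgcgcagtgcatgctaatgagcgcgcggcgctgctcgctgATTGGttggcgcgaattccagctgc
Rgs2: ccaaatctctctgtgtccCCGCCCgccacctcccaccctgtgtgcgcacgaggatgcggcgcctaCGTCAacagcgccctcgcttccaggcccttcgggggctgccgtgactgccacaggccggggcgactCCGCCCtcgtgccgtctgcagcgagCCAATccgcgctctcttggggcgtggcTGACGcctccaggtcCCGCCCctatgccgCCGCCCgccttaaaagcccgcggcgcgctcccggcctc
Gng12: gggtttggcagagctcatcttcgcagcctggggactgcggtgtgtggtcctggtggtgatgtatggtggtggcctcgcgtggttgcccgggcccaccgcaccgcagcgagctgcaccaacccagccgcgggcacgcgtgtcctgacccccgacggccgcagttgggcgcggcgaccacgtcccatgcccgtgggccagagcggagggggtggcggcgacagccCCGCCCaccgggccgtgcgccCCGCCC

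The 3 windows differed in composition. Rgs9 had 59.6% G and C with 14 CpG sites, Rgs2 had 72.4% with 30 and Gng12 had 74.4% with 28. The Rgs2 window held the TGACG half-site on both strands, 67 to 63 and 185 to 181 bases upstream, and neither of the others held it. A TATAAA match stood only in the Rgs9 window, 195 to 190 bases upstream. Over the 32851 windows of the same length in the reference table, TGACG was present in 17.8%, TATAAA in 12.4%, CCGCCC in 32.7% and CCAAT in 33.8%. Windows were listed for 39 of the 53 members, and those motifs stood in 9, 6, 21 and 12 of them. A member was counted if any of its windows held the motif, so these counts are not directly comparable with the shares over windows. A match describes letters in the window and is not evidence of a binding site.

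Rgs11, an R7 protein best known from the synapse of retinal ON bipolar cells, was the member with the largest fold change between transdifferentiated and delta libraries. The gene (ENSMUSG00000024186, GRCm38 chr17:26202951-26211324, plus strand) was at 33.1 and 24.8 RPKM in transdifferentiated libraries, 10.3 and 5.99 RPKM in beta libraries and 5.24 and 2.23 RPKM in delta libraries. Transdifferentiated libraries were the highest and the groups did not overlap. On the log2(RPKM + 1) scale it was higher in transdifferentiated than in delta libraries by 2.72 ± 0.35 (SE; limma adjusted p = 0.00505) and than in beta libraries by 1.74 ± 0.35 (limma adjusted p = 0.0072), which is 1.42 above the median of all genes. Beta exceeded delta by 0.98 ± 0.35 (limma adjusted p = 0.0495). In each population the male pool exceeded the female pool, as it did for the acinar markers, whose part in the level of Rgs11 was not tested. With the pool as a block the limma adjusted p-values were 2.1e-04 against delta, 3.3e-04 against beta and 0.0017 for beta against delta. Against delta the call held when any library was left out, with fold changes of 2.25 to 3.20. Against beta it was lost without the male transdifferentiated library (limma adjusted p = 0.057). For beta against delta it was lost without either transdifferentiated library, the male beta library or the female delta library, with limma adjusted p up to 0.246, and with a pseudocount of 0.1 or a lower or no filter. Of its exon bases, 3.28% are shared with Arhgdig on the opposite strand, which was at 3.07 and 2.45 RPKM in transdifferentiated, 8.65 and 4.95 RPKM in beta and 0.326 and 0.412 RPKM in delta libraries.

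Rgs9, the R7 protein of photoreceptors and striatal neurons, showed another order. It was at 31.5 RPKM in each transdifferentiated library, 6.09 and 7.15 RPKM in beta libraries and 52.1 and 46.9 RPKM in delta libraries. Transdifferentiated libraries thus lay between the others, lower than delta by a log2 difference of -0.63 (limma adjusted p = 0.0177) and higher than beta by 2.10 (limma adjusted p = 1.53e-04), or 1.77 above the median. Beta was lower than delta by a log2 difference of -2.73 ± 0.12 (SE; limma adjusted p = 1.29e-05). Rgs7, the third R7 member tested and prominent in brain, had 10.1 and 8.86 RPKM in transdifferentiated, 4.06 and 4.16 RPKM in beta and 12.8 and 11.5 RPKM in delta libraries. It was higher in transdifferentiated than in beta libraries by 1.03 (limma adjusted p = 8.67e-04) and did not pass against delta (-0.33, limma adjusted p = 0.131). Rgs6, the remaining R7 gene, stayed under the level needed for testing.

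The make-up of the R7 group therefore differed between populations at the level of RNA. Rgs9 over Rgs11 was 0.951 and 1.27 in transdifferentiated libraries, 0.592 and 1.19 in beta libraries and 9.95 and 21.0 in delta libraries. Ratios within a library do not depend on its scaling, and here the transdifferentiated values lay near the beta values and apart from delta. Summed R7 RPKM was 74.7 and 65.1 in transdifferentiated, 20.4 and 17.3 in beta and 70.2 and 60.6 in delta libraries, so the sum lay near delta instead. Gnb5, the partner of these proteins, was at 13.97 and 14.8 RPKM in transdifferentiated, 14.2 and 14.4 RPKM in beta and 20.4 and 21.2 RPKM in delta libraries. R7 RPKM per Gnb5 RPKM was 5.35 and 4.39 in transdifferentiated, 1.43 and 1.204 in beta and 3.44 and 2.87 in delta libraries, highest in both transdifferentiated libraries. Neither ratio was tested, and both were chosen after the values were seen.

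**Figure D1:**
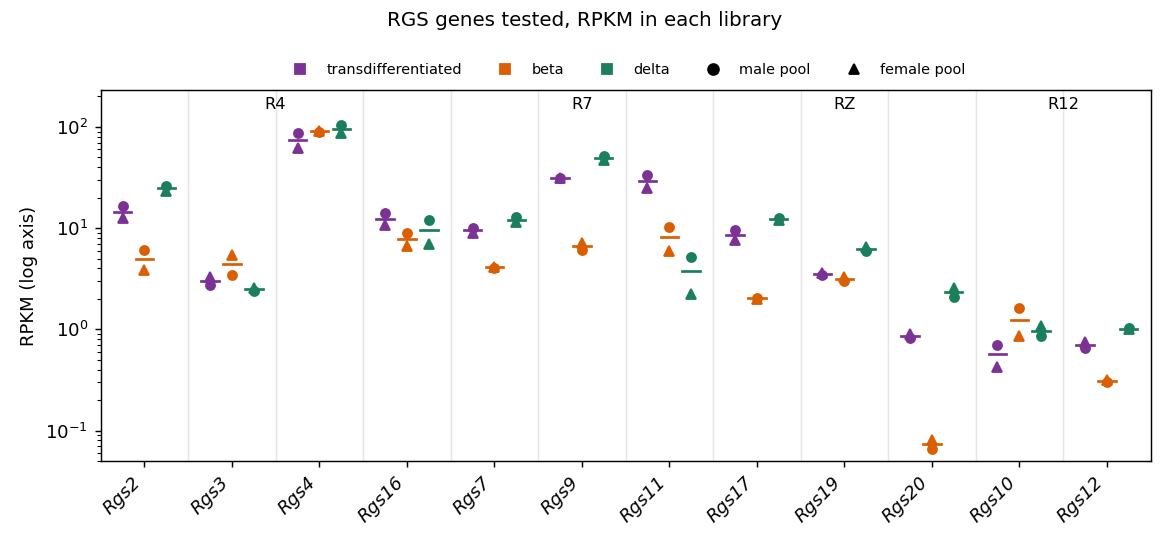
RPKM (log axis) of the Rgs genes tested, in transdifferentiated, beta and delta libraries, with circles for male pools, triangles for female pools and a bar at the mean of each group. Rgs11 is highest in transdifferentiated libraries, at 33.1 and 24.8 RPKM, whereas Rgs9 is highest in delta libraries, at 52.1 and 46.9 RPKM.

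Rgs20 belongs to the RZ group with Rgs17 and Rgs19, which act on Gαz and Gαi. It had 0.828 and 0.909 RPKM in transdifferentiated, 0.0656 and 0.0807 RPKM in beta and 2.10 and 2.59 RPKM in delta libraries, resting on 44 and 42, 6 and 7, and 151 and 172 reads in that order. The gene (ENSMUSG00000002459, chr1:4909576-5070285, minus strand, with 5.94% of its exon bases shared with opposite-strand genes) passed the expression filter through the delta libraries alone, so a difference for delta was built into its being tested. Its log2 fold change was -0.84 for transdifferentiated against delta (limma adjusted p = 0.0118), 0.80 for transdifferentiated against beta (limma adjusted p = 0.00399) and -1.64 for beta against delta (limma adjusted p = 1.72e-04). These log2(RPKM + 1) values understate the change of a gene at this level.

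Rgs17 had 9.47 and 7.62 RPKM in transdifferentiated, 2.06 and 2.01 RPKM in beta and 12.7 and 12.2 RPKM in delta libraries. It was higher in transdifferentiated than in beta libraries by 1.65 (limma adjusted p = 2.72e-04), and beta was lower than delta by a log2 difference of -2.15 (limma adjusted p = 4.51e-05). Against delta the difference of -0.50 missed the threshold (limma adjusted p = 0.052), and passed it with the pool as a block (limma adjusted p = 0.0428). Rgs19 had 3.47 and 3.62 RPKM in transdifferentiated, 3.01 and 3.31 RPKM in beta and 5.89 and 6.44 RPKM in delta libraries. It was lower than in delta libraries both in transdifferentiated (-0.66, limma adjusted p = 0.0134) and in beta libraries (-0.78, limma adjusted p = 0.00143). The 3 RZ genes thus shared the highest level in delta libraries, and transdifferentiated libraries lay between for each of them, although for Rgs19 the difference from beta was 0.13 and turned to -0.24 after scaling by median of ratios.

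In the R4 group of small RGS proteins, Rgs4, which limits muscarinic stimulation of insulin release in mouse beta cells, was the most abundant Rgs gene in every library. It stood at 87.5 and 62.0 RPKM in transdifferentiated, 89.97 and 90.4 RPKM in beta and 105 and 86.6 RPKM in delta libraries, and passed no comparison on the deposited scale. Its log2 fold changes in transdifferentiated libraries were -0.37 against delta and -0.29 against beta. The difference from beta passed after scaling, at -0.76. Rgs2, which acts mainly on Gαq, had 16.5 and 12.7 RPKM in transdifferentiated, 6.01 and 3.90 RPKM in beta and 26.4 and 23.3 RPKM in delta libraries. Transdifferentiated libraries lay between the others, higher than beta by 1.40 (limma adjusted p = 0.0020). Beta was lower than delta by a log2 difference of -2.14 (limma adjusted p = 2.57e-04). For transdifferentiated against delta the log2 difference was -0.74 with a limma adjusted p of 0.0631, and 0.0111 with the pool as a block. Rgs16, known from endocrine progenitors of the mouse pancreas, had 14.1 and 10.7 RPKM in transdifferentiated, 9.02 and 6.73 RPKM in beta and 12.1 and 6.90 RPKM in delta libraries. It missed the threshold in all 3 comparisons and passed against beta with the pool as a block (log2 fold change 0.59, limma adjusted p = 0.0105, against 0.102 without the block).

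Rgs12, a large scaffold protein with an RGS domain, was low, at 0.656 and 0.754 RPKM in transdifferentiated, 0.303 and 0.319 RPKM in beta and 1.02 RPKM in each delta library, and passed the filter only through delta. Its log2 fold change of 0.38 for transdifferentiated against beta lay at the threshold (limma adjusted p = 0.0491) and was lost with the pool as a block (limma adjusted p = 0.0631). Beta was lower than delta (-0.62, limma adjusted p = 0.00678). Rgs3 and Rgs10 had group means between 0.564 and 4.43 RPKM. On the deposited scale only the log2 difference of Rgs3 for beta against delta passed (0.62, limma adjusted p = 0.0296). After scaling both were lower in transdifferentiated than in beta libraries (-0.79 for Rgs3 and -0.74 for Rgs10). Rgs10 passed the expression filter through beta and delta libraries alone, which favoured that difference.

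Gnas encodes Gαs, the activator of adenylyl cyclase, from an imprinted locus with several transcripts. Its values here are for the whole gene, 11186 exon bases, and do not separate the Gαs transcript from the others. The gene had 12.3 and 15.8 RPKM in transdifferentiated, 2.47 and 2.62 RPKM in beta and 33.6 and 35.7 RPKM in delta libraries. The groups stood well apart, with log2 fold changes of -1.25 ± 0.14 for transdifferentiated against delta (SE; limma adjusted p = 0.00283), 2.08 for transdifferentiated against beta (limma adjusted p = 1.97e-04) and -3.33 for beta against delta (limma adjusted p = 1.17e-05). Of its exon bases, 22.0% are shared with genes on the opposite strand. No source used here states whether counting used strand, so reads of these genes cannot be told apart. The antisense gene Nespas had 1.93 and 2.10 RPKM in transdifferentiated, 0.0148 and 0.0467 RPKM in beta and 3.92 and 2.46 RPKM in delta libraries, the same order as Gnas. Gnal, the Gα of olfactory neurons and striatum, which also activates adenylyl cyclase, had 1.47 and 1.85 RPKM in transdifferentiated, 0.732 and 0.704 RPKM in beta and 1.71 and 1.55 RPKM in delta libraries. It was higher in transdifferentiated than in beta libraries (0.63, limma adjusted p = 0.00915) and lower in beta than in delta libraries (-0.61, limma adjusted p = 0.00813), a call lost after scaling (-0.37). Gnal passed the expression filter through transdifferentiated and delta libraries alone, so a difference from beta was built into its being tested.

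Gnai2 was the most abundant Gα gene and ran against Gnas. It had 191 and 172 RPKM in transdifferentiated, 333 and 299 RPKM in beta and 155 and 168 RPKM in delta libraries. It was lower in transdifferentiated than in beta libraries by a log2 difference of -0.80 (limma adjusted p = 0.00215), or -1.12 relative to the median, and higher in beta than in delta libraries by 0.96 (limma adjusted p = 7.03e-04). Gnai3, another Gαi gene, had its highest level in transdifferentiated libraries, at 70.0 and 57.6 RPKM, against 46.0 and 48.2 RPKM in beta and 40.0 and 37.2 RPKM in delta libraries. The difference from delta was 0.70 (limma adjusted p = 0.0154). That from beta was 0.42 (limma adjusted p = 0.0296) as deposited and turned to -0.04 (limma adjusted p = 0.765) after scaling by median of ratios, so Gnai3 has no stable direction against beta. Gnai1 had 8.86 and 7.14 RPKM in transdifferentiated, 2.63 and 2.56 RPKM in beta and 6.52 and 6.65 RPKM in delta libraries. It was higher in transdifferentiated than in beta (1.32, limma adjusted p = 5.39e-04) and lower in beta than in delta libraries (-1.08, limma adjusted p = 6.44e-04).

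Gnao1, the Gα abundant in neurons, had 67.3 and 69.8 RPKM in transdifferentiated, 31.9 and 51.2 RPKM in beta and 85.0 and 83.8 RPKM in delta libraries. It was lower in beta than in delta libraries by a log2 difference of -1.04 (limma adjusted p = 0.00517). Its excess in transdifferentiated over beta libraries was 0.75 (limma adjusted p = 0.0222) and fell to 0.28 (limma adjusted p = 0.22) after scaling. Gnaq, which activates phospholipase C beta, had 28.4 and 26.7 RPKM in transdifferentiated, 12.4 and 17.4 RPKM in beta and 34.6 and 34.5 RPKM in delta libraries. Its close relative Gna11 moved the other way, with 28.6 and 31.1 RPKM in transdifferentiated, 38.2 and 41.5 RPKM in beta and 31.5 and 33.9 RPKM in delta libraries. For transdifferentiated against beta Gnaq was higher by 0.86 (limma adjusted p = 0.00496) and Gna11 lower by a log2 difference of -0.41 (limma adjusted p = 0.0207). Gnaq over Gna11 was 0.990 and 0.859 in transdifferentiated, 0.326 and 0.419 in beta and 1.10 and 1.02 in delta libraries, lowest in both beta libraries. The remaining tested Gα genes were Gnaz, Gna12 and the cone transducin Gnat2, and on the deposited scale none of them passed in transdifferentiated libraries against either population. After scaling Gna12 (-0.54) and Gnat2 (-0.45) were lower than in beta libraries.

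**Figure D2:**
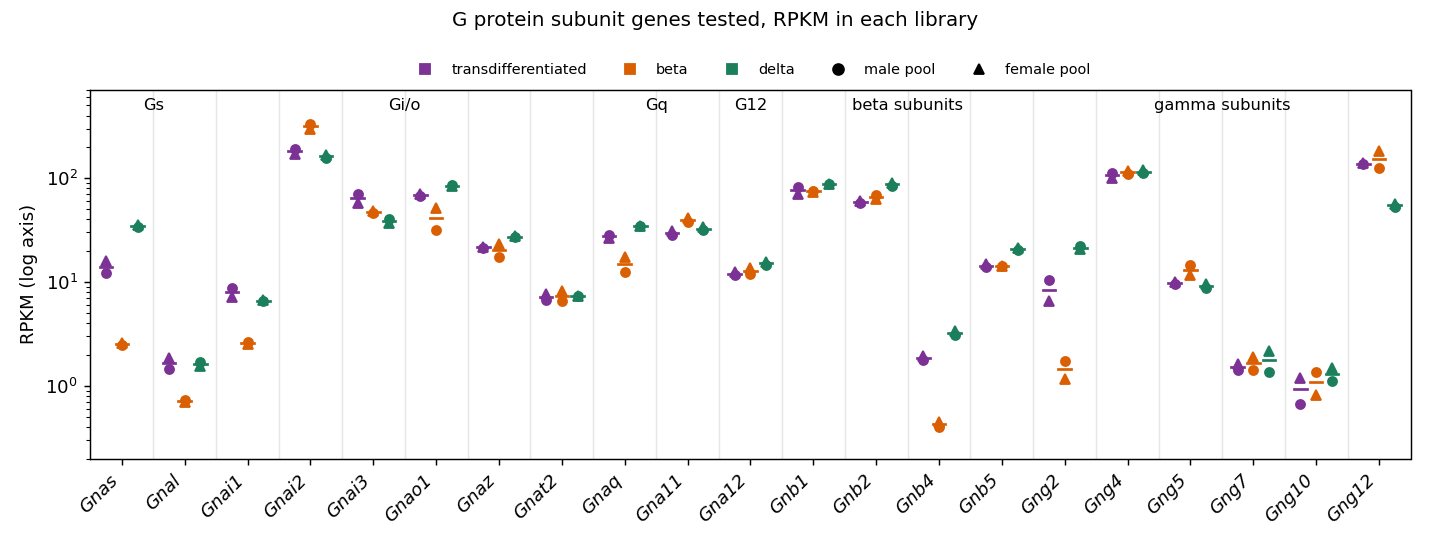
RPKM (log axis) of the tested Gα, Gβ and Gγ genes in transdifferentiated, beta and delta libraries, with circles for male pools, triangles for female pools and a bar at the mean of each group. Gng12 is low in delta libraries alone (52.9 and 56.2 RPKM), and Gnas and Gng2 are lowest in beta libraries.

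Of the Gβ genes, Gnb1 was the most abundant by its mean over libraries and passed no comparison on the deposited scale, at 82.4 and 70.2 RPKM in transdifferentiated, 75.3 and 73.8 RPKM in beta and 88.1 and 87.7 RPKM in delta libraries. Gnb2 had 57.7 and 60.5 RPKM in transdifferentiated, 69.2 and 62.9 RPKM in beta and 83.7 and 89.97 RPKM in delta libraries, above Gnb1 in the female delta library. Gnb4 was much lower, at 1.77 and 1.92 RPKM in transdifferentiated, 0.406 and 0.451 RPKM in beta and 3.09 and 3.36 RPKM in delta libraries. In transdifferentiated libraries Gnb2, Gnb4 and Gnb5 were each lower than in delta libraries, by log2 differences of -0.55 (limma adjusted p = 0.0214), -0.57 (limma adjusted p = 0.0286) and -0.50 (limma adjusted p = 0.0233). Against beta libraries Gnb4 was higher (0.99, limma adjusted p = 0.00114) and was the only Gβ gene to pass on the deposited scale. Gnb4 passed the expression filter through transdifferentiated and delta libraries alone, so a difference from beta was built into its being tested. After scaling Gnb1 (-0.44), Gnb2 (-0.63) and Gnb5 (-0.44) were also called, as lower. Beta was lower than delta for Gnb4 (-1.56, limma adjusted p = 1.26e-04) and Gnb5 (-0.51, limma adjusted p = 0.00538), the second of which was lost after scaling (-0.05). For Gnb2 that contrast was -0.39 (limma adjusted p = 0.0196) and turned to 0.09 after scaling.

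The Gγ genes that anchor the dimer to the membrane held the clearest pair of opposite patterns. Gng12 (ENSMUSG00000036402, chr6:66896397-67021350, plus strand) had 136 and 139.9 RPKM in transdifferentiated, 125 and 181 RPKM in beta and 52.9 and 56.2 RPKM in delta libraries. It exceeded delta in transdifferentiated libraries by 1.32 ± 0.18 (SE; limma adjusted p = 0.00533) and in beta libraries by 1.45 (limma adjusted p = 6.84e-04), and its difference between transdifferentiated and beta libraries was -0.12 (limma adjusted p = 0.578). After scaling that difference was -0.60 and passed. Gng2 had 10.4 and 6.52 RPKM in transdifferentiated, 1.74 and 1.17 RPKM in beta and 22.2 and 20.6 RPKM in delta libraries. It was lower in transdifferentiated than in delta libraries (-1.27, limma adjusted p = 0.0125), higher than in beta libraries (1.93, limma adjusted p = 8.13e-04) and lower in beta than in delta libraries (-3.20, limma adjusted p = 7.36e-05). Of the exon bases of Gng2, 20.4% are shared with a gene on the opposite strand.

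Gng4 was as abundant as Gng12, with a mean over the 6 libraries of 111.9 RPKM, and passed no comparison on the deposited scale. Its own level against Gng12 gave a ratio that needs no scaling. Gng12 over Gng4 was 1.21 and 1.38 in transdifferentiated, 1.15 and 1.54 in beta and 0.476 and 0.468 in delta libraries, so that Gng12 was the leading Gγ transcript everywhere except in delta. Of the other tested Gγ genes, Gng5, Gng7 and Gng10, only Gng5 passed a comparison on the deposited scale, higher in beta than in delta libraries by 0.47 (limma adjusted p = 0.0215). Gng5 and Rgs3 were outside the rule for named genes and are named because they complete the count of members higher in beta than in delta libraries.

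Shares within each family do not depend on scaling between libraries. Rgs11 made up 15.7% and 14.8% of summed Rgs RPKM in transdifferentiated, 7.53% and 4.56% in beta and 2.19% and 1.09% in delta libraries. Rgs4 made up 41.5% and 36.9% in transdifferentiated, 65.8% and 68.9% in beta and 43.7% and 42.4% in delta libraries, so the beta libraries were the most dominated by that gene. Among Gα genes other than Gnas, Gnai2 held 43.8% and 42.0% in transdifferentiated, 66.4% and 59.1% in beta and 38.3% and 40.2% in delta libraries. The Gi/o genes together held 83.8% and 82.2% in transdifferentiated, 87.2% and 85.4% in beta and 79.4% and 79.3% in delta libraries, a far smaller spread. With Gnas counted the Gi/o spread was wider, at 81.5% and 79.1% in transdifferentiated, 86.8% and 84.9% in beta and 73.4% and 73.1% in delta libraries. Gnas itself then held 2.76% and 3.72% in transdifferentiated, 0.490% and 0.514% in beta and 7.66% and 7.88% in delta libraries. That share is of the whole gene and not of the Gαs transcript alone. Among Gγ genes, Gng12 held 50.3% and 53.6% in transdifferentiated, 49.1% and 57.4% in beta and 26.7% in each delta library. These shares are descriptions and were not tested.

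**Figure D3:**
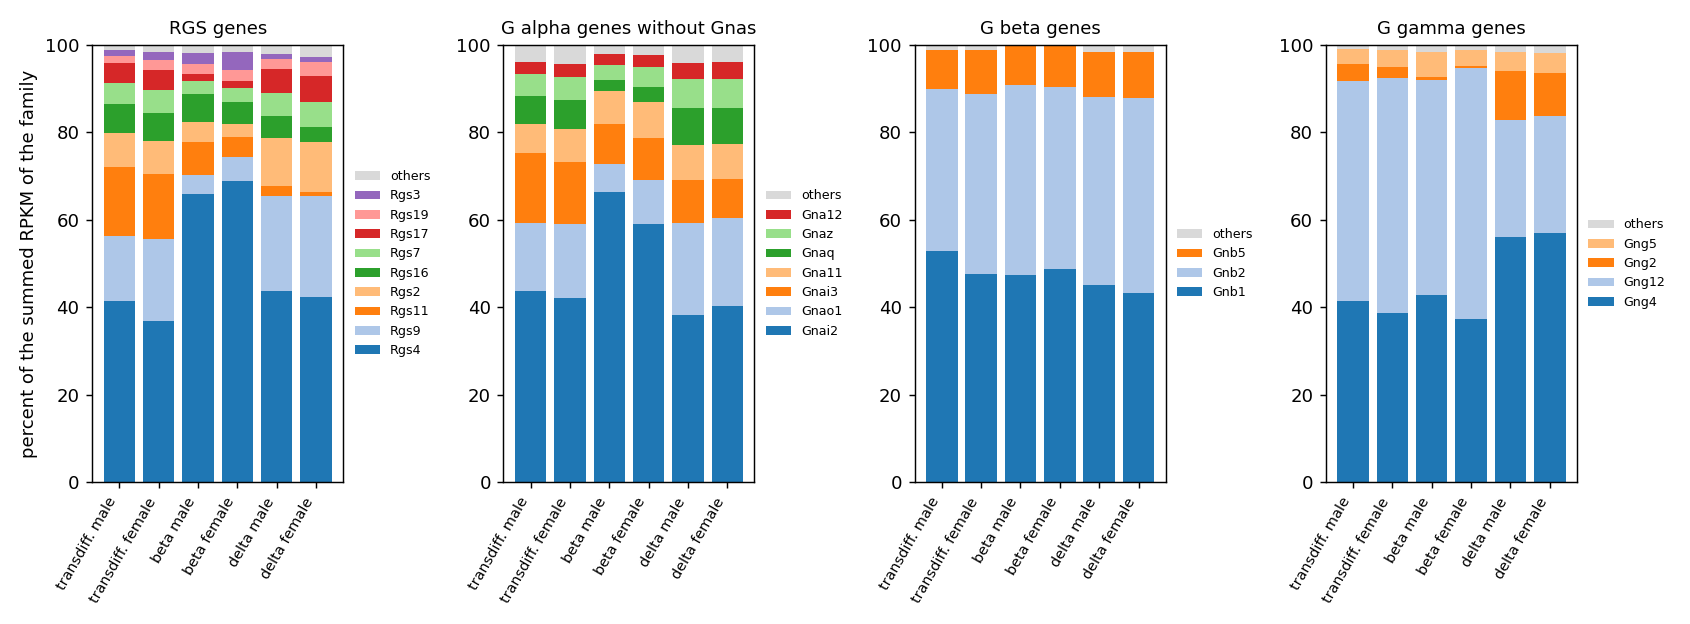
Share of each gene in the summed RPKM of its family (percent), per library, for transdifferentiated, beta and delta libraries, with families in separate panels. Gnas is left out of the Gα panel. The Rgs11 share is largest in transdifferentiated libraries (15.7% and 14.8%), the Gnai2 share in beta libraries, and the Gng12 share is smallest in delta libraries (26.7% in each).

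Counted over all members, 3 of the 33 tested were higher in transdifferentiated than in delta libraries (Gng12, Gnai3 and Rgs11) and 8 were lower (Rgs9, Rgs19, Rgs20, Gnas, Gnb2, Gnb4, Gnb5 and Gng2). That is 33.3% of the tested members, and 12.7% of all genes tested were called in this comparison. By direction, 9.09% of members were higher and 24.2% lower, beside 5.53% and 7.20% of all genes. The median log2 fold change of the members was -0.30 and that of all genes -0.03. Values of the groups did not overlap for 25 of the 33 members tested, beside 63.4% of all genes. With the pool as a block 3 members were higher and 10 lower, with 14.8% of all genes called. Only Rgs11, Gng12 and Gnas kept their call when any library was left out. Rgs9, Rgs19, Gnb2, Gnb4 and Gnb5 lost it whenever 1 library of the transdifferentiated or delta group was left out (highest limma adjusted p = 0.207). Rgs20 lost it without either transdifferentiated library or the female delta library (up to 0.0668), Gng2 without the female transdifferentiated library or either delta library (up to 0.072) and Gnai3 without the male transdifferentiated library or either delta library (up to 0.135). Alpha cell markers were lower in transdifferentiated than in delta libraries for 5 of 5 genes and PP cell markers for 2 of 2, and their part in these counts was not tested.

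In transdifferentiated against beta libraries, 15 members were higher and 2 lower (Gnai2 and Gna11), together 51.5% of those tested, and 51.0% of all genes were called. The share of members called was thus near that of all genes on the deposited scale. By direction 45.5% of members were higher and 6.06% lower, beside 42.5% and 8.46% of all genes. Rgs12, Rgs20, Gnal and Gnb4, counted as higher here and as lower for beta against delta, did not reach 1 RPKM in beta libraries. They passed the expression filter through other groups. With the pool as a block 53.9% of all genes were called. Values did not overlap for 24 of the 33 members tested, no larger a share than the 76.0% of all genes. Of the called members 88.2% were higher, beside 83.4% of all called genes. Scaling by median of ratios gave 12 higher and 13 lower of the 33 members tested, so that 48.0% of the called members were higher. Of all genes tested, 55.1% were called after scaling (25.5% higher and 29.6% lower), a smaller share than of the members. The members' median was 0.13 and that of all genes 0.32. Of the 17 calls, 12 held whichever library was left out. Rgs12 lost its call in each of these fits (limma adjusted p up to 0.156), Gna11 without either transdifferentiated or either delta library (up to 0.116) and Gnai3 without the male transdifferentiated, the male beta or either delta library (up to 0.164). Gnao1 lost its call without either transdifferentiated library (up to 0.0972). Delta cell markers were higher in transdifferentiated than in beta libraries for 5 of 5 genes and PP cell markers for 2 of 2, and macrophage and dendritic cell markers were lower for 7 of 10, with sums of 47.0 and 53.5 RPKM against 171 and 189 RPKM in beta libraries. The part of these cells in the counts was not tested.

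Beta against delta libraries gave 5 higher members (Gng12, Rgs11, Gnai2, Rgs3 and Gng5) and 17 lower ones, 66.7% of those tested, where 57.9% of all genes were called. By direction 15.2% of members were higher and 51.5% lower, beside 11.7% and 46.3% of all genes. Scaling by median of ratios gave 9 higher and 13 lower of the 33 members tested, beside 29.8% and 28.1% of all genes, 57.9% in sum. With the pool as a block 60.6% of all genes were called. Values did not overlap for 26 of the 33 members tested, no larger a share than the 80.9% of all genes. The members' median was -0.39 and that of all genes -0.36. Rgs3 and Gnaz each lost the call in 5 of the 6 fits that left out a library, all but that without the male beta library for Rgs3 (up to 0.122) and all but that without the female beta library for Gnaz (up to 0.164). Gng5 lost it without the male beta library or either delta library (up to 0.140), Gnb2 without either delta library (up to 0.143) and Gnb5 without the female delta library (0.054). Alpha cell markers were lower in beta than in delta libraries for 5 of 5 genes, PP cell markers were lower for 2 of 2, and macrophage and dendritic cell markers were higher for 7 of 10 and lower for 1, and their part in these counts was not tested. The 3 comparisons share their libraries in pairs, so their counts are not independent.

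**Figure D4:**
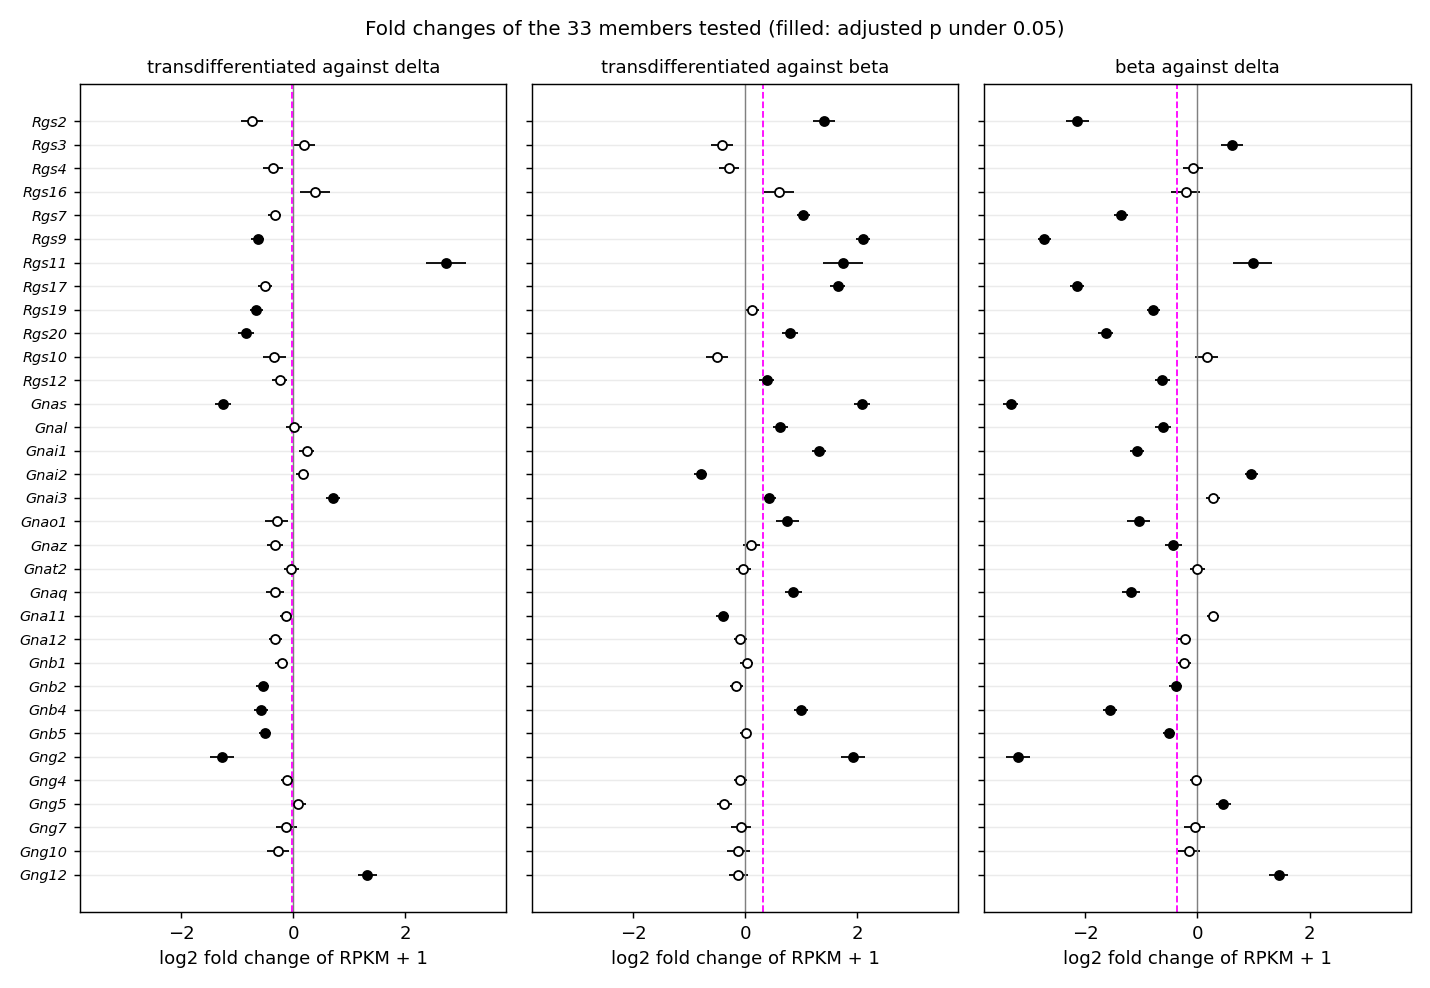
Log2 fold change on the log2(RPKM + 1) scale of the tested members in transdifferentiated against delta, transdifferentiated against beta and beta against delta libraries, with bars for the SE, filled points for limma adjusted p under 0.05 and a dashed line at the median of all genes. Rgs11 and Gng12 lie farthest to the higher side against delta (2.72 and 1.32), and Rgs9 and Gnas farthest to the higher side against beta (2.10 and 2.08).

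The 20 members not tested reached at most 0.815 RPKM in any library. They were Rgs1, Rgs5, Rgs6, Rgs8, Rgs13, Rgs14, Rgs18, Rgs21, Rgs22, Gna14, Gna15, Gnat1, Gnat3, Gnb3, Gng3, Gng8, Gng11, Gng13, Gngt1 and Gngt2. Rgs18, Rgs21 and Gngt1 were listed at 0 in every library, at a depth where 3 reads in the shallowest library would be 0.136, 0.0698 and 0.0783 RPKM. Rgs22 was at 0.343 and 0.237 RPKM in transdifferentiated and 0.785 and 0.740 RPKM in delta libraries and was listed at 0 in both beta libraries. With the filter lowered to 0.25 RPKM it was called in transdifferentiated against delta (-0.45, limma adjusted p = 0.0449), a filter it passed through the delta libraries and the male transdifferentiated library. Rgs1 and Gngt2, known from lymphoid and myeloid cells, were highest in beta libraries. Rgs1 had 0.0230 and 0.185 RPKM in transdifferentiated, 0.467 and 0.732 RPKM in beta and 0.0339 and 0 RPKM in delta libraries, and Gngt2 had 0 and 0.196, 0.815 and 0.755, and 0.0314 and 0 RPKM in that order. Both passed the lower filter through beta libraries alone, which favoured a difference for beta. In that fit both were higher in beta than in delta libraries (0.65, limma adjusted p = 0.00858, and 0.81, limma adjusted p = 0.00276). Both were lower in transdifferentiated than in beta libraries (-0.53, limma adjusted p = 0.0199, and -0.71, limma adjusted p = 0.00592). Rgs22, Gnat3 and Gng3 were called there as lower in beta than in delta libraries. Macrophage and dendritic cell markers summed to 171 and 189 RPKM in beta and 76.7 and 91.1 RPKM in delta libraries. Most of the delta sum was C1qa, at 34.9 and 40.5 RPKM in beta and 59.3 and 76.9 RPKM in delta libraries, the marker that was lower in beta. Of the 10 markers, 0 were below 3 reads in both beta libraries and 6 in both delta libraries, and Lyz2 was at 5.82 and 7.99 RPKM in beta and listed at 0 in delta libraries. The part of such cells in the levels of Rgs1 and Gngt2 was not tested.

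Other genes of the pathway were described from a list of 54 genes that holds receptor kinases, arrestins, chaperones, anchors and effectors, of which 53 were in the table and 39 were tested. In transdifferentiated against delta libraries 3 of them were higher and 8 lower, or 28.2% beside the 12.7% of all genes, with a median log2 fold change of -0.12. Gpr158, an orphan receptor that binds R7 RGS proteins with Gβ5, had 11.1 and 12.7 RPKM in transdifferentiated, 12.0 and 20.0 RPKM in beta and 0.909 and 0.820 RPKM in delta libraries. It was higher by 2.79 in transdifferentiated (limma adjusted p = 9.96e-04) and by 3.145 in beta (limma adjusted p = 8.5e-05) than in delta libraries. Gpr158 passed the expression filter through transdifferentiated and beta libraries alone, which favoured a difference from delta. Grk5, a receptor kinase, had 8.27 and 10.1 RPKM in transdifferentiated, 8.70 and 15.3 RPKM in beta and 2.07 and 1.67 RPKM in delta libraries, and Arrb2, beta-arrestin 2, had 9.76 and 10.0 RPKM in transdifferentiated, 11.4 and 10.8 RPKM in beta and 4.95 and 4.55 RPKM in delta libraries. Both were higher in transdifferentiated than in delta libraries (1.82, limma adjusted p = 0.00565, and 0.92, limma adjusted p = 0.00331). Grk5 lost that call without the female transdifferentiated library (0.0537).

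The 8 lower genes were Ccdc88c, Rasgrp1, Kcnj3, Arrb1, Gprin1, Gpr179, Rap1gap and Plcb4. Ccdc88c, which encodes a non-receptor activator of Gαi, had 2.88 and 3.26 RPKM in transdifferentiated, 0.125 and 0.170 RPKM in beta and 7.80 and 7.62 RPKM in delta libraries (transdifferentiated against delta -1.10, limma adjusted p = 0.00275). Rasgrp1, an activator of Ras, had 2.68 and 2.52 RPKM in transdifferentiated, 0.132 and 0.471 RPKM in beta and 7.46 and 7.76 RPKM in delta libraries (-1.26, limma adjusted p = 0.00401). Kcnj3, a subunit of the potassium channel opened by Gβγ, had 0.857 and 0.633 RPKM in transdifferentiated, 0 and 0.00937 RPKM in beta and 2.18 and 2.21 RPKM in delta libraries (-0.88, limma adjusted p = 0.00954, and 0.0513 without the female delta library). Kcnj3 passed the expression filter through the delta libraries alone, so a difference for delta was built into its being tested. These 3 genes were at 0.471 RPKM or less in beta libraries and lay between in transdifferentiated libraries. Arrb1, Gprin1, Gpr179 and Plcb4 lost their call whenever 1 transdifferentiated or delta library was left out (up to 0.233), and Rap1gap without the male transdifferentiated or either delta library (up to 0.120).

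In transdifferentiated against beta libraries 25 of the 39 pathway genes were higher, or 64.1% beside 42.5% of all genes. On the log2(RPKM + 1) scale the changes were led by Ccdc88a (1.90, limma adjusted p = 1.97e-04), Ccdc88c (1.82, limma adjusted p = 1.93e-04) and Plcb4 (1.70, limma adjusted p = 3.72e-04). That scale understates the change of genes low in beta libraries. Kcnj3, for example, averaged 0.745 RPKM in transdifferentiated and 0.00469 RPKM in beta libraries, and Gpr179 averaged 1.12 and 0.0298 RPKM. Ccdc88c, Gpr179, Rasgrp1, Arrb1 and Gprin3 passed the expression filter through transdifferentiated and delta libraries alone, which favoured a difference from beta. Only Gpsm1, which encodes a protein that binds GDP-bound Gαi, was lower, at 9.72 and 13.1 RPKM in transdifferentiated, against 18.3 and 23.2 RPKM in beta libraries (-0.81, limma adjusted p = 0.00855, and 0.0564 without the male transdifferentiated library). After scaling the split was 13 higher and 8 lower, or 33.3% and 20.5%, beside 25.5% and 29.6% of all genes. Beta against delta libraries had 5 higher and 24 lower pathway genes, or 12.8% and 61.5%, beside 11.7% and 46.3% of all genes. After scaling they had 6 higher and 18 lower, or 15.4% and 46.2%, beside 29.8% and 28.1% of all genes. On the log2(RPKM + 1) scale, the 4 pathway genes with the largest fold changes on the higher side were Gpr158, Grk5, Gpsm1 and Arrb2, at 1.07 or more. The 4 on the lower side were Ccdc88c, Rasgrp1, Plcb4 and Rap1gap, at -1.85 or beyond. Genes low in beta libraries, such as Kcnj3 and Gpr179, rank lower on this scale than by the ratio of their RPKM.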

How the data were processed

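RNA of 6 sorted islet cell libraries (TruSeq RNA v2 kit, per the labels' protocols) was analysed from the table of RPKM values that the authors deposited. STAR 2.5, featureCounts, edgeR 3.14.0 and the assembly GRCm38.p4 are named in the submitters' processing notes, while the annotation and strand setting are not given in the sources used here. Of 46959 rows, 27 with symbols turned into dates were left out. Multiplying RPKM by gene length gave whole reads for 83.3% to 86.4% of values under 50 reads, within 0.01 read, from which depth was taken. Such reads were used for depth, for the read numbers given in the text and for the floors of 3 reads, and no count test was run.

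Values were taken as log2(RPKM + 1) and fitted with limma 3.58.1 (R 4.3.3, trend) in 1 model of the 6 libraries, keeping the 13022 genes that reached 1 RPKM in 2 libraries or more. Tests were two-sided with Benjamini-Hochberg adjustment over all genes tested, threshold 0.05, with 3 residual degrees of freedom among libraries. The script was tested on simulated data. Alternatives were a pseudocount of 0.1, no filter, a filter of 0.25 RPKM, median-of-ratios scaling, the pool as a block and each library left out. The series text places the populations in the same islets, and pools were taken to pair the libraries on that ground. Same-sex libraries deviated together (correlations over genes of 0.47, 0.36 and 0.24). A shared effect of sex would give this too, so the correlations cannot decide whether the pools are paired. Members were matched by symbol to GENCODE release 21 of the mouse annotation, 53 of 53.

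Text names Rgs11 and Rgs20, members called for transdifferentiated libraries in either comparison, members called with a log2 size of 1 or more for beta against delta, and the most abundant member of each family. Members and lists were chosen with earlier results of these data known. Beta and delta libraries also belong to an earlier series.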

Additional observations from a re-analysis of the deposited data

Results flagged for a closer look

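Gng10, a Gγ gene at about the filter level, differed in direction between the pools in transdifferentiated against beta libraries. The log2 difference was -0.5106 in the male pool and 0.2661 in the female pool, and the difference between pools was not tested. It was the only 1 of 99 member comparisons with opposite signs of at least 0.25 in both pools. The gene rested on 11 and 17 reads in transdifferentiated libraries and 39 and 22 reads in beta libraries, and 72.0% of its exon bases are shared with another gene model.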

How the results depend on the processing

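The number of members lower in transdifferentiated than in beta libraries moved to 4 with no filter, 4 with the lower filter and 13 after scaling, against 2, and that of members higher in beta than in delta libraries to 9 after scaling, against 5. Scaling turned the sign for Gnai3 (-0.044), Gnb1 (-0.44), Gnb5 (-0.44), Rgs19 (-0.24) and Gnaz (-0.35) in transdifferentiated against beta, and for Gnat2 (0.42), Gnb2 (0.085), Gnaz (0.033), Gng4 (0.45), Rgs4 (0.40), Rgs16 (0.22), Gnb1 (0.24), Gna12 (0.23), Gng7 (0.25) and Gng10 (0.12) in beta against delta libraries. Leaving out each library in turn gave 2 to 3 higher and 1 to 12 lower members against delta, 11 to 15 higher and 1 to 4 lower against beta, and 2 to 4 higher and 14 to 18 lower for beta against delta. With the pool as a replicate block, transdifferentiated against delta had 3 higher and 10 lower members, Rgs17 and Rgs2 being added. Apart from Rgs12 lost and Rgs16 added against beta, the block changed no other member's call. Gnb4 lost its call against delta with a pseudocount of 0.1 and with no filter and Gng2 with no filter. Gnai3 and Gnao1 lost theirs against beta, and Rgs3 and Gnaz theirs for beta against delta, with no filter. Of the pathway genes called against delta, Rasgrp1 and Kcnj3 were lost with a pseudocount of 0.1, Arrb1 with no filter, Gpr179 with both and Plcb4 with both and the lower filter. The cause was not tested. With 2 libraries a group and 10.9 M to 21.6 M reads, no limit of detection was tested.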
